A study of Mus musculus with 12 samples.

Results

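A set of 81 genes was near absent from mouse embryonic fibroblasts (MEF) and from induced pluripotent stem cells (iPSC), the start and the end of reprogramming, and present in cells sorted on the way between them. The genes were chosen by level alone, in counts per 1000000 gene counts (CPM). A gene belonged when its mean was at most 1 CPM in MEF and at most 1 CPM in iPSC and its highest mean among the 4 sorted populations was at least 10 CPM. Of the 37583 genes in the deposited tables, 88 met these limits. A further exclusion by name, of Hox genes and 12 single genes, removed 7 of them (Tbx21, Crhr2, Trim9, Ly6h, Tac2, Nptx1 and Ly6d) and left the 81. The low ends and the high middle are therefore what the choice used, and the values against MEF and iPSC are described here with no test.

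RNA-seq of poly-A RNA covered 12 libraries, 2 for each of 6 groups, all from cells labelled 129SV/Jae/C57BL6J. MEF and iPSC, titled 3/4 MEF and 3/4 iPSC, were grown in MEF medium and ES media, and the reprogramming cultures in ES media with dox and AA, so medium changed with the group. The sorted cells all carried SSEA1, a surface sugar of pluripotent cells, and were taken by flow cytometry after trypsin and antibody staining. The d3_Ineff cells of day 3 lacked CD73 and carried Sca1, and the d3_Eff cells of day 3 carried CD73 and lacked Sca1. The d6_Ineff cells of day 6 lacked EpCAM and carried Sca1, and the d6_Eff cells of day 6 carried EpCAM and lacked Sca1. Which cells gave rise to each gate, and whether replicates came from separate cultures or animals, is not stated in the labels, so every p-value rests on the spread between the samples alone, which may be technical.

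During reprogramming, forced transcription factors silence the fibroblast programme within days and open the pluripotency network later. Cells between these states are known to switch on genes of lineages that neither end point belongs to, and surface markers are used to enrich the cells that will go on to pluripotency. Because the RNA came from populations, fewer cells making a transcript and less transcript per cell cannot be told apart in any value below.

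The sort genes followed the gates. Ly6a, which encodes Sca1, averaged 752 CPM in d3_Ineff, 82.0 in d3_Eff, 582 in d6_Ineff and 13.2 in d6_Eff. Nt5e, which encodes CD73, averaged 3.31 CPM in d3_Ineff and 37.2 in d3_Eff, and Epcam averaged 30.2 CPM in d6_Ineff and 1034 in d6_Eff. Reads assigned to genes ran from 9284060 in MEF replicate 2 to 22763548, and the share of uniquely mapped reads outside annotated genes was 47.2% in MEF replicate 2, 24.1% in d6_Eff replicate 2 and 5.10% to 11.7% elsewhere. MEF replicate 2 stood apart from its partner: its fibroblast markers summed to 20665 CPM against 67726 CPM in MEF replicate 1, and 62 of the 81 genes had no count there against 24 in replicate 1. With MEF replicate 1 alone as the fibroblast library the limits would leave 74 genes, and with MEF replicate 2 alone 96.

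The promoters of the 4 genes with the highest level per kilobase of exon are shown, chosen by that level. They run from poor to rich in CG dinucleotides. Each is the RefSeq window of 300 bases on build GRCm38.p6, 250 before and 50 after the annotated start, written in the direction of the gene, with CG dinucleotides in capitals. Acsbg1 lies on the minus strand at chr9:54661836-54662135, Shisa3 on the plus strand at chr5:67607633-67607932, Avil on the plus strand at chr10:127000459-127000758 and Cldn11 on the plus strand at chr3:31149670-31149969.
Acsbg1: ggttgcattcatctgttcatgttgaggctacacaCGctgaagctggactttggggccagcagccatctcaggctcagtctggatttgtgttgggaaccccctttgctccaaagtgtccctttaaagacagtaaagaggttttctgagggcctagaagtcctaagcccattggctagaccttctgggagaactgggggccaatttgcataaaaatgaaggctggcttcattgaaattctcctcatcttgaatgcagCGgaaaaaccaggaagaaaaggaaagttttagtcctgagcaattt
Shisa3: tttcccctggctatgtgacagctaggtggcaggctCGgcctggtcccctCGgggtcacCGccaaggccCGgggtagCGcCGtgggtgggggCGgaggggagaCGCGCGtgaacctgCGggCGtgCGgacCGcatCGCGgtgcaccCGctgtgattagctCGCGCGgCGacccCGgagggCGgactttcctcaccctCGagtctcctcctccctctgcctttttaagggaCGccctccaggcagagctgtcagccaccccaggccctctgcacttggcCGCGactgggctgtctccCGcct
Avil: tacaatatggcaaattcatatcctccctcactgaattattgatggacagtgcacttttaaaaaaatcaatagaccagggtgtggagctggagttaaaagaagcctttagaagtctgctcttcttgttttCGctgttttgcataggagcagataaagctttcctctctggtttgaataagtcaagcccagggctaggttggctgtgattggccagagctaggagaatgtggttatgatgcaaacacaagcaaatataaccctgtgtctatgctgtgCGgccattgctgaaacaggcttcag
Cldn11: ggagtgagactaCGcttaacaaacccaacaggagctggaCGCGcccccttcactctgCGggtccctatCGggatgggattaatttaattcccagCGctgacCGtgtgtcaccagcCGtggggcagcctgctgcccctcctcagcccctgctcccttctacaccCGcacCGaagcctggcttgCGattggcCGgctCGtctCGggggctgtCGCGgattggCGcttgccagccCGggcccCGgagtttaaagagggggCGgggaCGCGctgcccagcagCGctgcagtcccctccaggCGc
The Acsbg1 and Avil windows hold 2 CG dinucleotides each, against 28 in Shisa3 and 24 in Cldn11. The ratio of observed to expected CG was 0.122 for Acsbg1, 0.146 for Avil, 0.763 for Shisa3 and 0.730 for Cldn11.

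The set was spread over the sorted groups. Day 6 Ineff cells held the highest mean for 40 genes (49.4%), d3_Eff for 18, d6_Eff for 17 and d3_Ineff for 6. Among all 9943 genes with a highest sorted mean of at least 10 CPM, 33.1% were highest in d6_Ineff and 35.6% in d6_Eff, against 21.0% of the set in d6_Eff. For 43 of the 81 genes only 1 sorted group reached 10 CPM, and 11 reached it in all 4, while 82.6% of the 9943 genes reached it in all 4. All 4 sorted groups exceeded 1 CPM for 60 of the 81 (74.1%), against 98.6% of the 9943 genes. Summed over the set, the level was 24.7 and 8.51 CPM in MEF, 1064 and 1025 in d3_Ineff, 1655 and 1466 in d3_Eff, 2130 and 2426 in d6_Ineff and 1540 and 1406 in d6_Eff. In iPSC it was 21.1 and 21.7 CPM.

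**Figure D1:**
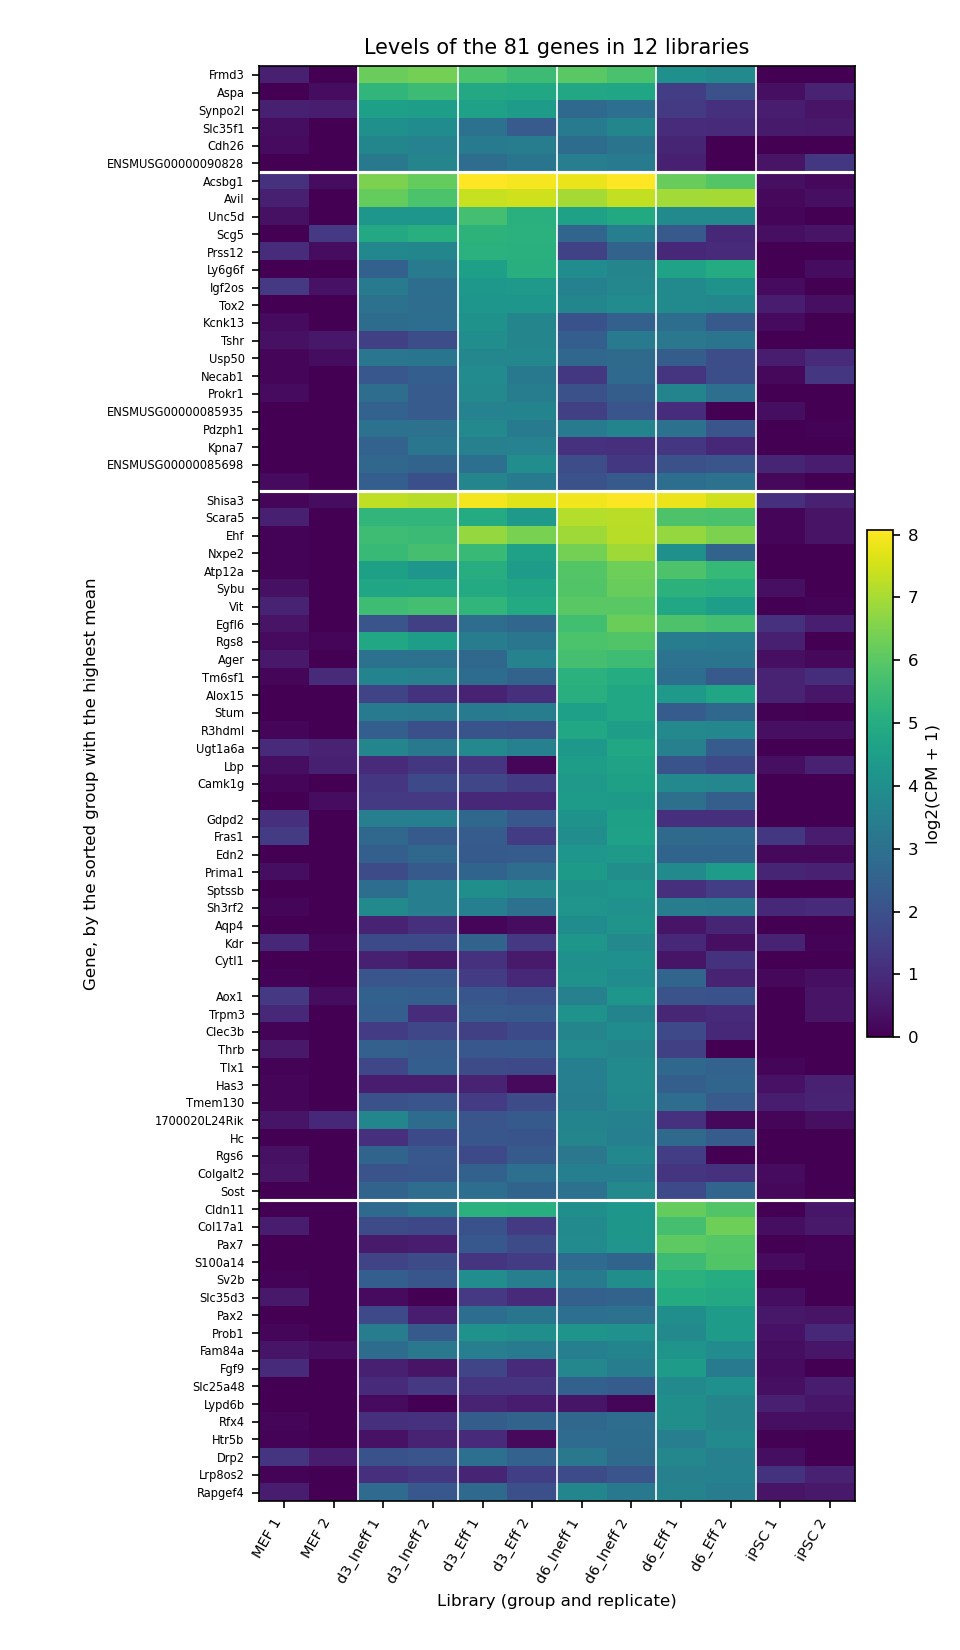
Heat map of log2(CPM + 1) for the 81 genes (rows, 3 of them without a name, grouped by the sorted population with the highest mean and ordered by that mean) in the 12 libraries (columns). The MEF and iPSC columns are dark by the choice of the genes, and the block of 40 rows highest in d6_Ineff is the longest of the 4 blocks.

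Replicates were close in the sorted groups. Among genes at 10 CPM or more in a group, the higher replicate was a median of 1.12 to 1.23 times the lower, and the widest gap was 3.15-fold, for Nxpe2 in d6_Eff. Both libraries of the highest group lay above all 4 MEF and iPSC libraries for each of the 81 genes, which the limits of the choice nearly fix. All 8 sorted libraries did so for 63, a count that the choice also favours. No share over all genes was taken for either count. No count was seen in either MEF library for 21 genes and in either iPSC library for 20, and in all 4 for 5. No count over a pair of libraries still allows up to 0.0991 CPM in MEF and 0.080 CPM in iPSC, from counting error only. At least 1 of these 4 libraries exceeded 1 CPM for 16 genes.

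The limits cut through a continuum. Sost and Colgalt2 entered with highest sorted means of 10.1 and 10.3 CPM, while Gsx1, Prox1 and Abcc12 stayed out at 9.85, 9.65 and 9.47. Drp2, Igf2os and Ugt1a6a entered with MEF means of 0.96, 0.924 and 0.878 CPM, and Aldh1a1, Il6ra and Kcnf1 stayed out at 1.02, 1.07 and 1.16. Fras1, Lrp8os2 and Sh3rf2 entered with iPSC means of 0.999, 0.978 and 0.912 CPM, and Gsta3, Ecel1 and Afap1l2 stayed out at 1.08, 1.08 and 1.09.

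The sorted groups were then compared with each other. The choice used them through their highest mean, so these comparisons are not independent of it. A gene admitted through 1 group alone, as the 43 above were, had to be high there, and its test against that group carries the choice. This holds for all 43, also where it is not repeated beside a gene. Counts of all 12 libraries were fitted with edgeR's quasi-likelihood test, with calls made where p, adjusted by Benjamini-Hochberg over the 16240 genes tested, was under 0.05. All 81 passed the filter on low counts. The choice favours genes that vary among the sorted groups, and with 40 of the 81 highest in d6_Ineff it favours differences towards that group. Shares called, directions and medians over the set are therefore descriptions and support nothing about it. Log2 differences are given ± SE from this fit. The Eff and Ineff gates were set by CD73 and Sca1 on day 3 and by EpCAM and Sca1 on day 6. Every comparison between days therefore joins day with a change of sort marker, and these cannot be told apart.

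On day 3 few differences between the gates passed the test. Pax7, a paired-box transcription factor of muscle stem cells and neural crest, and Acsbg1, an acyl-CoA synthetase that activates long-chain fatty acids, were higher in d3_Eff than in d3_Ineff. They were the 2 genes called, both higher, where 0.400% of all genes tested were called (0.160% higher and 0.240% lower). The median log2 difference was 0.21 over the set and 0 over all genes, its median size without sign was 0.74 against 0.27, and 24 genes of the set had an unadjusted p under 0.05. The calls rested on every sorted library: the number called was 0 without any single 1 of the 8 sorted libraries, 19 without MEF replicate 1, 18 without MEF replicate 2 and 4 without iPSC replicate 2. DESeq2's Wald test called 16.

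On day 6 the gates differed for 37 genes, 29 lower and 8 higher in d6_Eff than in d6_Ineff. Lower in d6_Eff were, among others, the receptor gene Kdr, the water channel gene Aqp4, the secreted protein gene Cytl1 and the enzyme genes Aspa, Sptssb and Gdpd2. Higher were Pax7, Cldn11, Col17a1, Lypd6b, S100a14, Slc25a48, Slc35d3 and Sv2b. Of all genes tested 14.6% were called, 5.38% higher and 9.25% lower. The median log2 difference was -0.95 over the set and 0 over all genes. The count was 24 without d6_Ineff replicate 1, 22 without d6_Ineff replicate 2 and 18 without d6_Eff replicate 2, and 18 of the 37 calls held in each of 12 refits that left out 1 library. The fibroblast marker list, of which 14 of 20 genes were lower in d6_Eff and none higher, summed to 8587 and 8802 CPM in d6_Ineff and to 1621 and 1245 CPM in d6_Eff. The simple epithelial list, which holds Ehf and the day 6 sort marker Epcam, had 17 of 22 genes higher and none lower. It summed to 649 and 658 CPM in d6_Ineff and to 3530 and 3742 CPM in d6_Eff. Within these sums Epcam, whose difference was set by the sort, made up 29.7 and 30.7 CPM in d6_Ineff and 1026 and 1041 CPM in d6_Eff. The part of either list in the result was not tested.

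**Figure D2:**
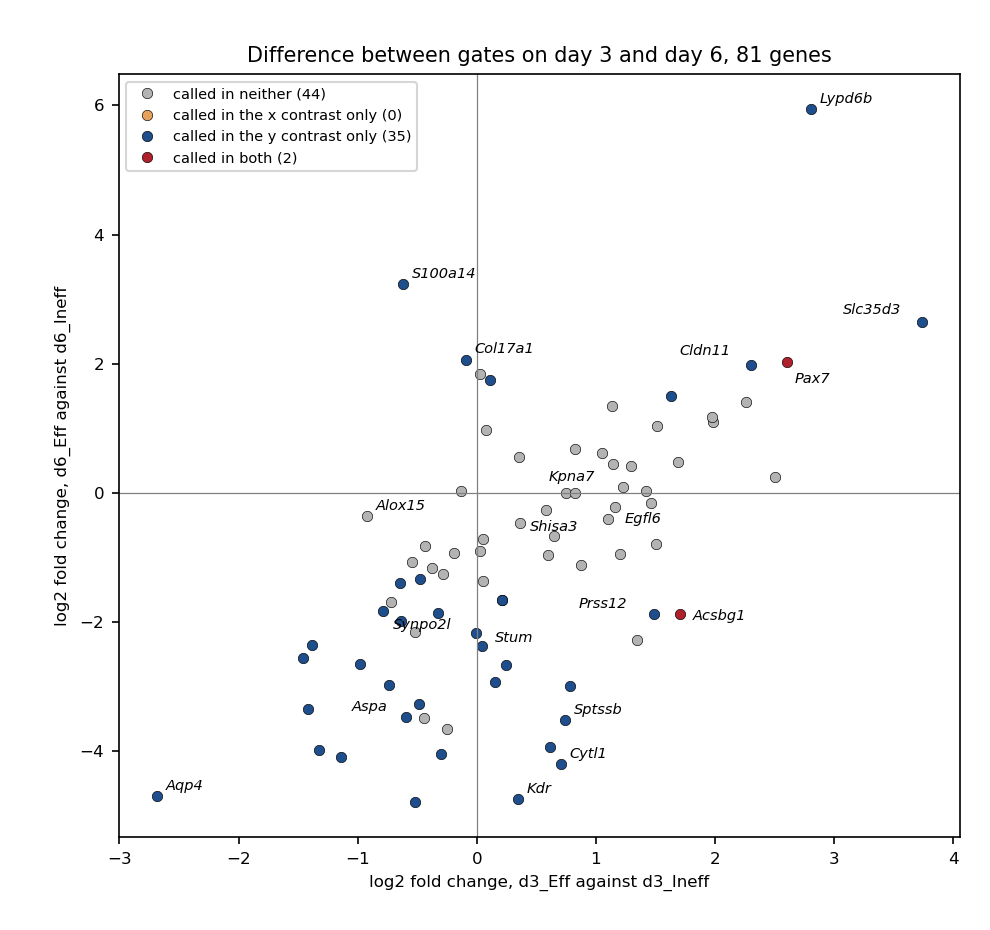
Log2 fold change of the 81 genes between gates on day 3 (x axis, d3_Eff against d3_Ineff) and on day 6 (y axis, d6_Eff against d6_Ineff), coloured by call at an adjusted p under 0.05. Of the 81 genes 44 were called in neither, 35 on day 6 alone and 2 (Pax7 and Acsbg1) on both days, and Acsbg1 lies on opposite sides of 0 on the 2 days.

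In the Ineff gate most calls from day 3 to day 6 were rises, towards the group through which many of the genes were admitted. Of 27 genes called between d6_Ineff and d3_Ineff, 25 were higher on day 6, among them Alox15, Egfl6, Cytl1, Slc35d3 and Pax7. The 2 lower were Kpna7, an importin alpha, and Synpo2l, an actin-associated protein of muscle. Kpna7 read 4.76 and 7.95 CPM in d3_Ineff, 10.4 and 11.0 in d3_Eff, 1.24 and 1.19 in d6_Ineff and 1.45 and 0.923 in d6_Eff. Its Ineff call was lost with the replicate number as a block (adjusted p = 0.0507) and without any d3_Ineff, d3_Eff or d6_Ineff library (adjusted p from 0.0717 to 0.304). Of all genes tested 4.42% were called, 3.19% higher and 1.23% lower, and the median log2 difference was 1.15 over the set. Scaling by total counts moved the median of all genes by 0.12 and put 84.8% of all calls on the higher side, against 72.2% in the fit used here. Leaving out a library changed the count strongly: it was 50 and 46 without MEF replicate 1 or 2, 6 and 4 without d3_Ineff replicate 1 or 2, and 10 and 6 without d6_Ineff replicate 1 or 2. The calls of Alox15, Egfl6 and Pax7 held in each of the 12 refits.

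In the Eff gate the set moved both ways. Between d6_Eff and d3_Eff 16 genes were higher on day 6 and 15 lower, where 9.11% of all genes were called (4.24% higher and 4.87% lower). The median log2 difference was -0.16 over the set. Higher on day 6 were S100a14, Col17a1, Alox15, Slc35d3, Htr5b and Pax7, and lower were Prss12, Cdh26, Synpo2l, Scg5, Aspa and Sptssb. The count fell to 19 and 18 without d3_Eff replicate 1 or 2 and to 17 without d6_Eff replicate 2, and 13 of the 31 calls held in each of the 12 refits. Both gates rose for 12 genes, among them Alox15, Camk1g, Col17a1, Egfl6, Fgf9, Has3, Htr5b, Pax7, R3hdml, Slc35d3 and Sv2b. Of these, Alox15, Egfl6 and Pax7 alone kept both calls in each of the 12 refits. Both gates fell for Kpna7 and Synpo2l, and Acsbg1 rose in the Ineff gate and fell in the Eff gate. No share over all genes was taken for these joint counts.

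**Figure D3:**
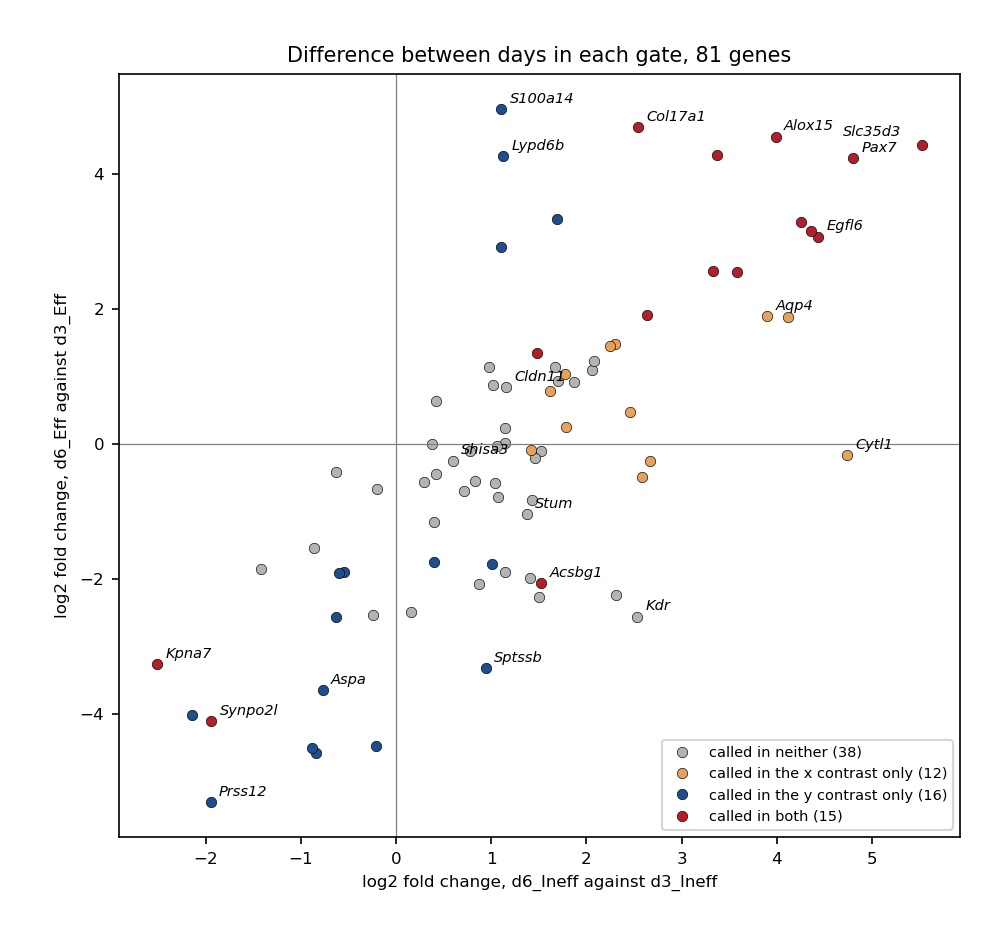
Log2 fold change of the 81 genes from day 3 to day 6 in the Ineff gate (x axis) and in the Eff gate (y axis), coloured by call at an adjusted p under 0.05. Points called in both contrasts (15) lie in the upper right and lower left apart from Acsbg1, and S100a14 and Lypd6b stand high on the y axis alone.

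The gap between gates itself differed between days for 6 genes, where 1.39% of all genes were called (0.296% higher and 1.09% lower). It shifted towards d6_Ineff for Acsbg1, Sptssb, Aspa, Stum and Synpo2l and towards d6_Eff for S100a14. Leaving out MEF replicate 1 or 2 gave 28 and 29 calls. Counts were 2 and 1 without d3_Ineff replicate 1 or 2, 2 without either d3_Eff library, 1 without d6_Ineff replicate 2 and 1 without d6_Eff replicate 2. The call of Acsbg1 alone held in each of the 12 refits. With scaling by total counts the shifts of Aspa, Stum and Synpo2l were lost (adjusted p from 0.0537 to 0.0617), and with the replicate number as a block that of Stum (adjusted p = 0.0562). Over the 4 comparisons of 2 groups, 55 genes of the set were called in at least 1 (19.2% of all genes), and 26 in none.

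Acsbg1 (ENSMUSG00000032281) had the highest level of the set for its length, at 71.3 CPM per kilobase in d3_Eff. It read 1.24 and 0.215 CPM in MEF, 87.3 and 70.6 in d3_Ineff, 266 and 248 in d3_Eff, 226 and 267 in d6_Ineff and 72.9 and 58.8 in d6_Eff. In iPSC it read 0.266 and 0.134 CPM. The 4 libraries of d3_Eff and d6_Ineff lay above the 4 of d3_Ineff and d6_Eff with no overlap. More Acsbg1 was thus found in the Eff gate on day 3 and in the Ineff gate on day 6, gates sorted by partly different markers. The log2 difference between gates was 1.71 ± 0.28 on day 3 (adjusted p = 0.0367) and -1.88 ± 0.29 on day 6 (adjusted p = 0.00155), and the difference between these was -3.59 ± 0.40 (adjusted p = 0.00513). The day 3 call was lost without any of the 8 sorted libraries and without iPSC replicate 1, with adjusted p from 0.0515 to 0.399, and with scaling by total counts (adjusted p = 0.0815). It rose from day 3 to day 6 in the Ineff gate (1.52 ± 0.28, adjusted p = 0.0131) and fell in the Eff gate (-2.06 ± 0.29, adjusted p = 0.00108). The Ineff rise was lost without either d3_Ineff or either d6_Ineff library, with adjusted p from 0.0636 to 0.187.

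The enzyme genes Aspa and Sptssb had their lowest sorted level in d6_Eff. Aspa (ENSMUSG00000020774), which splits N-acetylaspartate, read 38.8 and 45.3 CPM in d3_Ineff, 28.1 and 27.5 in d3_Eff, 27.2 and 26.4 in d6_Ineff and 1.74 and 3.01 in d6_Eff. Sptssb (ENSMUSG00000043461), a small subunit of the serine palmitoyltransferase that starts sphingolipid synthesis, read 6.5 and 9.86 in d3_Ineff, 15.1 and 12.4 in d3_Eff, 16.5 and 17.8 in d6_Ineff and 1.16 and 1.78 in d6_Eff. For both genes the d6_Eff libraries lay below the 6 other sorted libraries without overlap. The log2 difference between d6_Eff and d6_Ineff was -3.47 ± 0.46 for Aspa (adjusted p = 0.000704) and -3.52 ± 0.43 for Sptssb (adjusted p = 0.000997), and both calls held in each refit. Their shift between days was -2.88 ± 0.60 (adjusted p = 0.0435) and -4.26 ± 0.57 (adjusted p = 0.0134). The Aspa shift was lost without any of the 8 sorted libraries (adjusted p from 0.0954 to 0.194). The Sptssb shift was lost without either d3_Ineff library, either d3_Eff library, d6_Ineff replicate 2 or d6_Eff replicate 2 (adjusted p from 0.0552 to 0.0851). Gdpd2, a glycerophosphodiester phosphodiesterase family gene, read 16.5 and 23.2 CPM in d6_Ineff against 1.16 and 1.11 in d6_Eff (log2 -4.09 ± 0.70, adjusted p = 0.00384).

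Alox15 (ENSMUSG00000018924), a lipoxygenase that oxidises polyunsaturated fatty acids, was a gene of day 6 in both gates. It had no count in MEF and read 2.18 and 1.29 CPM in d3_Ineff, 0.710 and 1.11 in d3_Eff, 33.1 and 26.8 in d6_Ineff and 19.7 and 25.8 in d6_Eff. In iPSC it read 0.709 and 0.402 CPM. All 4 libraries of day 6 lay above all 4 of day 3. The rise was 3.99 ± 0.42 in the Ineff gate (adjusted p = 0.000945) and 4.55 ± 0.45 in the Eff gate (adjusted p = 0.000222), both on the log2 scale. Has3, a hyaluronan synthase whose exons share sequence with those of Chtf8 on the other strand, also rose in both, from 0.578 and 0.533 CPM in d3_Ineff to 9.95 and 13.5 in d6_Ineff and from 0.755 and 0.152 in d3_Eff to 4.39 and 5.23 in d6_Eff. Has3 was admitted through d6_Ineff alone, so its test in the Ineff gate carries the choice. Its Ineff call was lost without either d3_Ineff library or d6_Ineff replicate 2 (adjusted p from 0.0715 to 0.12) and its Eff call without d3_Eff replicate 2 or d6_Eff replicate 2 (adjusted p = 0.101 and 0.0684). Of the 11 enzymes in the set 8 were highest in d6_Ineff and none in d6_Eff. Of all 81 genes 49.4% were highest in d6_Ineff and 21.0% in d6_Eff. Of the 9943 genes with a sorted mean of at least 10 CPM these shares were 33.1% and 35.6%. In d6_Eff 6 enzymes were lower than in d6_Ineff: Acsbg1, Aspa, Colgalt2, Gdpd2, Sptssb and Ugt1a6a. Over the set 29 of 81 genes were lower there, and over all genes tested 9.25%. Ugt1a6a, a glucuronosyltransferase at 18.9 and 27.6 CPM in d6_Ineff, shares its last exons with the other Ugt1a genes, so its count is uncertain.

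Transcription factors of the set came from several lineages. Pax7 (ENSMUSG00000028736) had no count in either MEF library. It read 0.489 and 0.533 CPM in d3_Ineff, 3.64 and 2.63 in d3_Eff, 13.8 and 17.6 in d6_Ineff and 65.7 and 60.3 in d6_Eff. In iPSC it read 0 and 0.0671 CPM. The 4 sorted groups did not overlap, and d6_Eff was highest. Pax7 was higher in the Eff gate on day 3 (2.60 ± 0.38, adjusted p = 0.0304) and on day 6 (2.03 ± 0.31, adjusted p = 0.00204), and the gap itself did not pass the test of a difference between days (-0.57 ± 0.48, adjusted p = 0.739). Without any of the 8 sorted libraries the day 3 call was lost, with adjusted p from 0.0636 to 0.253. The rises from day 3 to day 6 (4.80 ± 0.39 in the Ineff gate, adjusted p = 0.000285, and 4.23 ± 0.35 in the Eff gate, adjusted p = 8.42e-05) held in each refit. The defining muscle regulators Myod1, Myog and Myf5 averaged at most 0.0965 CPM in the sorted groups, and 12 of 20 muscle markers stayed below 1 CPM in all 4 sorted groups. Of 17 neural crest and melanocyte markers, a list that holds Pax7, 7 stayed below 1 CPM there. In it Pax3 and Sox10 averaged at most 0.0439 CPM, while Ngfr averaged 144 to 241 CPM over the sorted groups and in d6_Eff Erbb3 averaged 33.2 and Tfap2a 17.2 CPM. The list summed to 189 to 229 CPM in d3_Ineff, 212 to 235 in d3_Eff, 278 to 283 in d6_Ineff and 353 to 371 in d6_Eff, and its part in the Pax7 result was not tested.

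Ehf (ENSMUSG00000012350), an ETS factor of epithelia, was present in every sorted library. It read 46.6 and 44.6 CPM in d3_Ineff, 110 and 86.2 in d3_Eff, 119 and 147 in d6_Ineff and 109 and 87.5 in d6_Eff, against 0.0477 and 0 in MEF and 0.0886 and 0.335 in iPSC. Both d3_Ineff libraries lay below the 6 others, which overlapped in part. The rise in the Ineff gate was 1.42 ± 0.25 (adjusted p = 0.0107), and it was lost without either d3_Ineff library or d6_Ineff replicate 2 (adjusted p from 0.112 to 0.148). Pax2, a paired-box factor of kidney and brain, read 6.48 and 7.88 CPM in d3_Eff and 15.3 and 20.7 in d6_Eff, and no comparison between sorted groups passed the test. Of the other factors, Rfx4 averaged 13.3 CPM in d6_Eff, Tlx1 11.8 and Thrb 12.4 in d6_Ineff, and Tox2 17.9 in d3_Eff. Of the 8 factors 4 rose from day 3 to day 6 in the Ineff gate, among them Ehf, Pax7 and Rfx4, and none fell in either gate. Over all 81 genes 25 rose in the Ineff gate and 2 fell. The Rfx4 rise there was lost without any of the 4 libraries compared (adjusted p from 0.0863 to 0.187). In the list of 551 patterning and epithelial transcription factors that holds Ehf, Pax2, Pax7 and Tlx1, 303 were tested. Between d6_Ineff and d3_Ineff 18 of them rose and 2 fell, where 3.19% of all genes rose and 1.23% fell. Between d6_Eff and d3_Eff 37 rose and 24 fell, where 4.24% of all genes rose and 4.87% fell.

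**Figure D4:**
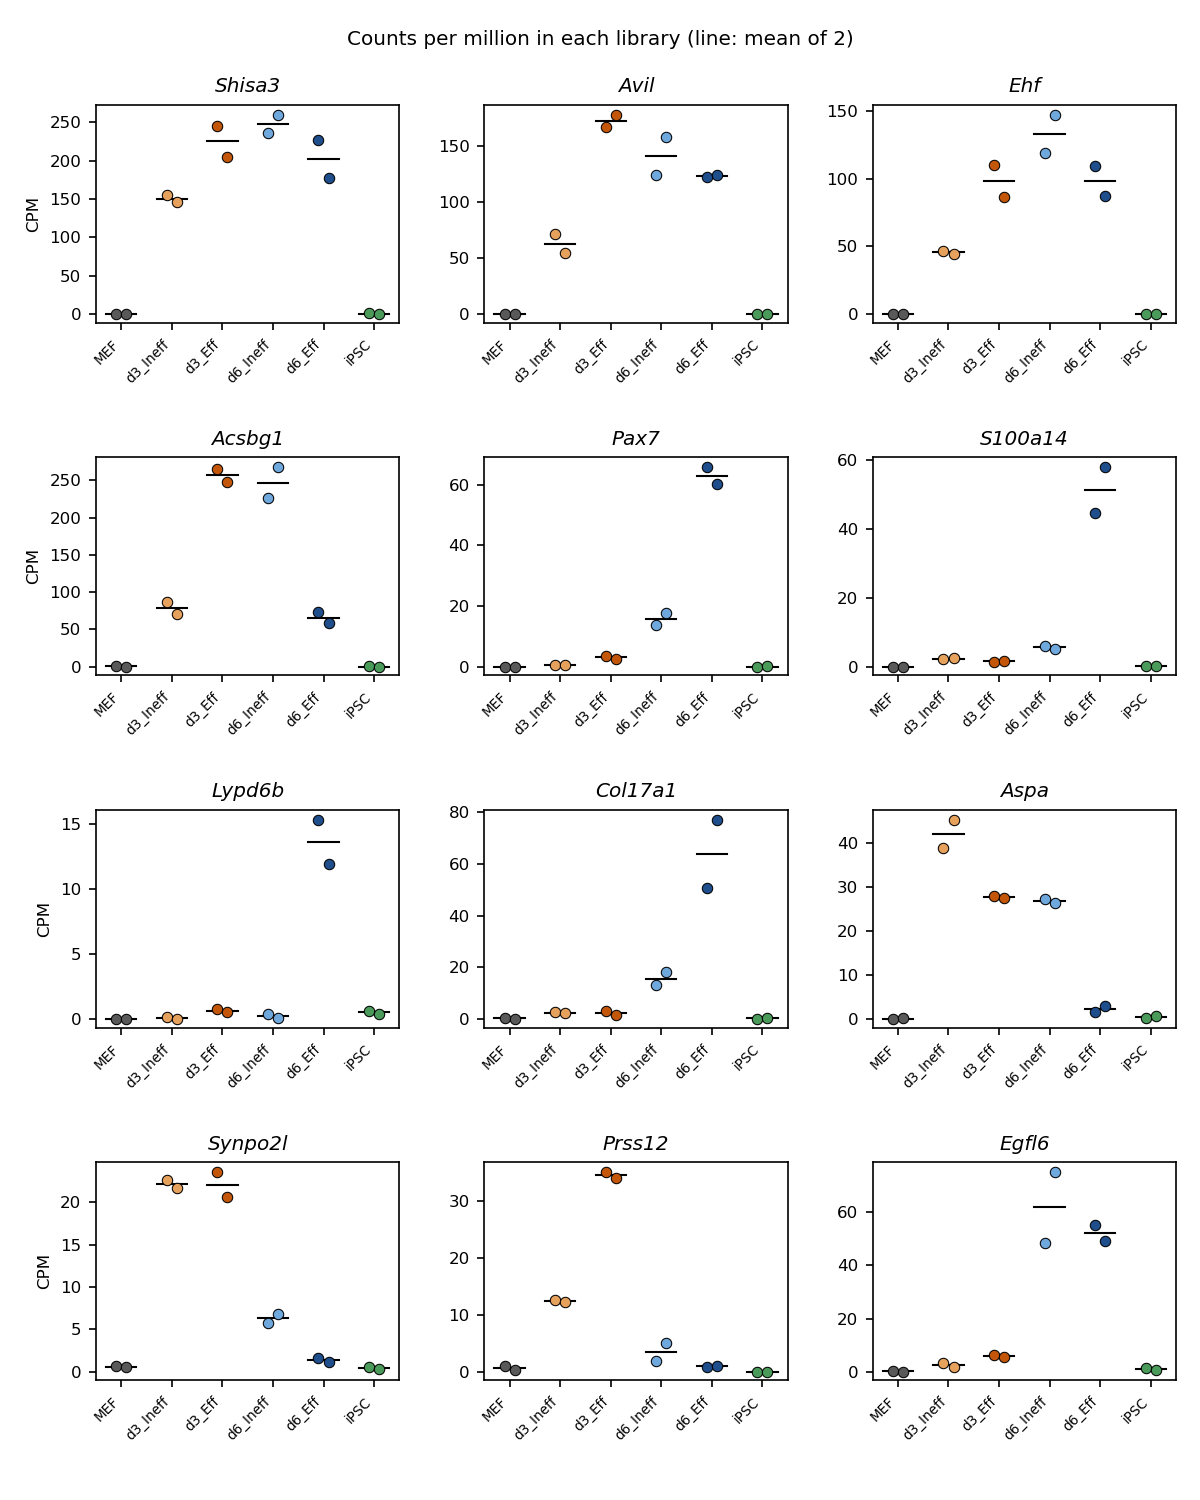
CPM (y axes, linear, each with its own scale) of 12 genes in every library of the 6 groups, with points for the 2 libraries and a line at their mean. Shisa3, Avil and Ehf stand in all 4 sorted groups, Pax7, S100a14, Lypd6b and Col17a1 are highest in d6_Eff, Aspa, Synpo2l and Prss12 are lower there than in the other 3 sorted groups, and Acsbg1 is high in d3_Eff and d6_Ineff.

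Shisa3 (ENSMUSG00000050010) belongs to a family that holds Wnt and FGF receptors inside the cell, and it was abundant in every sorted library. It read 155 and 145 CPM in d3_Ineff, 245 and 205 in d3_Eff, 236 and 259 in d6_Ineff and 226 and 178 in d6_Eff, against 0.0953 and 0.215 in MEF and 1.11 and 0.671 in iPSC. Both d3_Ineff libraries lay below the 6 others, and no comparison passed the test, with log2 differences from -0.26 ± 0.21 to 0.60 ± 0.21. Avil (ENSMUSG00000025432), an actin-binding protein of the villin family, read 71.3 and 54.7 CPM in d3_Ineff, 167 and 178 in d3_Eff, 124 and 158 in d6_Ineff and 123 and 124 in d6_Eff. Its d3_Eff libraries were the highest and its d3_Ineff libraries the lowest, yet the log2 difference of 1.46 ± 0.32 between them did not pass (adjusted p = 0.0893). The exons of both overlap a gene on the other strand, Atp8a1 for Shisa3 and Tsfm for Avil, and the counting ignored strand. Atp8a1 averaged 8.92 CPM or less and Tsfm 78.5 CPM or less in the sorted groups.

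Receptors were led by Scara5 (ENSMUSG00000022032), a scavenger receptor that takes up ferritin. It read 39.0 and 38.8 CPM in d3_Ineff, 30.4 and 19.5 in d3_Eff, 142 and 149 in d6_Ineff and 55.5 and 52.9 in d6_Eff. The d6_Ineff libraries lay above all others and the d3_Eff libraries below. It rose from day 3 to day 6 in the Ineff gate (1.78 ± 0.37, adjusted p = 0.0228) and was lower in d6_Eff than in d6_Ineff (-1.40 ± 0.36, adjusted p = 0.0263). Each call was lost without any 1 of the 4 libraries it compared, with adjusted p from 0.0909 to 0.203. Ager, the receptor for advanced glycation end products, read 50.6 and 46.5 CPM in d6_Ineff and 5.46 to 11.1 in the 6 other sorted libraries.

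Kdr (ENSMUSG00000062960), the main VEGF receptor of endothelium, read 2.49 and 2.49 CPM in d3_Ineff, 4.88 and 1.52 in d3_Eff, 18.5 and 12.9 in d6_Ineff and 0.868 and 0.246 in d6_Eff. Kdr was admitted through d6_Ineff alone, so its test against that group carries the choice. It was lower in d6_Eff than in d6_Ineff by a log2 difference of -4.74 ± 0.94 (adjusted p = 0.00673, and 0.064 without d6_Eff replicate 2). Of 15 endothelial markers, Kdr among them, 6 stayed below 1 CPM in all 4 sorted groups, and the list summed to 159 to 171 CPM in d3_Ineff, 121 to 159 in d3_Eff, 193 to 201 in d6_Ineff and 120 to 124 in d6_Eff. In d6_Ineff Pecam1 averaged 1.20 CPM, Emcn 0.81, Cdh5 6.57, Tie1 5.26 and Tek 140 CPM, and their part in the Kdr result was not tested. Tshr, the thyrotropin receptor, read 1.87 and 2.71 CPM in d3_Ineff and 14.4 and 11.7 in d3_Eff (2.50 ± 0.48, adjusted p = 0.066). Unc5d, a netrin receptor, fell from 49.6 and 33.6 CPM in d3_Eff to 13.2 and 13.2 in d6_Eff (-1.75 ± 0.35, adjusted p = 0.0098). That fall was lost without d3_Eff replicate 1 or either d6_Eff library (adjusted p from 0.0661 to 0.0955). Htr5b, a serotonin receptor, rose from 0.977 and 0.152 CPM in d3_Eff to 9.99 and 13.6 in d6_Eff (4.28 ± 0.79, adjusted p = 0.00581), and Prokr1, a prokineticin receptor, read 12.8 and 9.75 CPM in d3_Eff.

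Secreted and matrix proteins made up 12 genes, of which 9 were highest in d6_Ineff. So were 49.4% of the 81 genes and 33.1% of the 9943 genes with a sorted mean of at least 10 CPM. Egfl6 (ENSMUSG00000000402), a matrix protein with EGF-like repeats, read 3.38 and 1.87 CPM in d3_Ineff, 6.30 and 5.35 in d3_Eff, 48.6 and 75.1 in d6_Ineff and 55.1 and 49.3 in d6_Eff. The 4 libraries of day 6 overlapped and lay above all 4 of day 3. It rose by 4.44 ± 0.44 in the Ineff gate (adjusted p = 0.000474) and by 3.07 ± 0.41 in the Eff gate (adjusted p = 0.000887). Cytl1 (ENSMUSG00000062329), a small secreted protein of cartilage, read 15.7 and 15.6 CPM in d6_Ineff and 0.386 to 1.29 in the 6 other sorted libraries. Its log2 difference of d6_Eff against d6_Ineff was -4.20 ± 0.74 (adjusted p = 0.00587). Cytl1 was admitted through d6_Ineff alone, so this test carries the choice. Edn2, an endothelin, read 18 and 19.7 CPM in d6_Ineff and 3.86 to 5.55 elsewhere in the sorted cells, and Lbp, which binds bacterial lipopolysaccharide, 21.3 and 24.3 against 0.101 to 3.28.

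Growth factor and inhibitor genes were also present. Fgf9 read 12.4 and 9.62 CPM in d6_Ineff and 20.9 and 9.35 in d6_Eff, against 0.355 to 2.22 on day 3, and Sost, the Wnt inhibitor sclerostin, read 7.28 and 13 CPM in d6_Ineff. The Fgf9 rise was called in both gates (adjusted p = 0.022 and 0.034). It was lost without any of the 4 libraries compared, and in the Eff gate also without either d6_Ineff library (adjusted p from 0.0546 to 0.246). Prss12 (ENSMUSG00000027978), the secreted protease neurotrypsin, went the other way. It read 12.5 and 12.1 CPM in d3_Ineff, 34.9 and 34.0 in d3_Eff, 1.93 and 4.96 in d6_Ineff and 0.868 and 0.984 in d6_Eff, with no overlap between these groups. Its fall in the Eff gate, -5.31 ± 0.57 on the log2 scale (adjusted p = 0.000334), held in each refit. Scg5, a chaperone of prohormone convertase, fell there from 36.3 and 34.6 CPM to 3.76 and 0.861 (-4.01 ± 0.86, adjusted p = 0.0131), a call lost without either d3_Eff library or d6_Eff replicate 2 (adjusted p from 0.0576 to 0.117). Over the 12 genes 8 rose from day 3 to day 6 in the Ineff gate and none fell. Of all 81 genes 25 rose there and 2 fell, and of all genes tested 3.19% rose and 1.23% fell.

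Of the 8 genes higher in d6_Eff than in d6_Ineff, 3 were grouped by hand as adhesion, junction and surface genes: Cldn11, Col17a1 and Lypd6b. S100a14, of another role, is described beside them. S100a14 (ENSMUSG00000042306), a calcium-binding protein of epithelia, read 2.14 and 2.62 CPM in d3_Ineff, 1.38 and 1.72 in d3_Eff, 6.09 and 5.10 in d6_Ineff and 44.8 and 58.0 in d6_Eff. Col17a1 (ENSMUSG00000025064), a collagen of hemidesmosomes, read 2.58 and 2.35, 3.06 and 1.57, 13.2 and 18.1, and 50.7 and 77.0 CPM in the same groups. For both genes the d6_Eff libraries lay above all others, and the d6_Ineff libraries above those of day 3. S100a14 was admitted through d6_Eff alone, so its tests against that group carry the choice. S100a14 was higher in d6_Eff than in d6_Ineff by 3.23 ± 0.35 (adjusted p = 0.00034) and rose in the Eff gate by 4.96 ± 0.38 (adjusted p = 6.04e-05). Its shift between days was 3.85 ± 0.49 (adjusted p = 0.00922), lost without replicate 2 of d3_Ineff, d6_Ineff or d6_Eff (adjusted p from 0.050 to 0.0655). Col17a1 was higher in d6_Eff by 2.06 ± 0.46 (adjusted p = 0.0123), lost without either d6_Ineff library or d6_Eff replicate 2 (adjusted p from 0.0678 to 0.152).

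Of 19 keratinocyte markers, a list that holds Col17a1, 13 stayed below 1 CPM in all 4 sorted groups, with Krt5 at 0.0444 CPM or less and Krt14 at 0.318 or less, while Perp averaged 338 to 508 CPM and Itgb4 195 to 392. The list summed to 761 to 776 CPM in d3_Ineff, 521 to 574 in d3_Eff, 847 to 861 in d6_Ineff and 771 to 834 in d6_Eff. Cldn11 (ENSMUSG00000037625), a tight junction protein of myelin and testis, read 5.69 and 7.86 CPM in d3_Ineff, 34.4 and 32.4 in d3_Eff, 15.4 and 17.7 in d6_Ineff and 70.3 and 57.4 in d6_Eff. The Eff libraries lay above the Ineff libraries of the same day on both days. The difference passed on day 6 (1.98 ± 0.43, adjusted p = 0.0134) and missed on day 3 (2.3 ± 0.44, adjusted p = 0.0679). The day 6 call was lost without any of the 4 day 6 libraries, with adjusted p from 0.0624 to 0.122. Lypd6b (ENSMUSG00000026765), a Ly6-type modulator of nicotinic receptors, read 15.3 and 11.9 CPM in d6_Eff and at most 0.755 in the other sorted libraries, a log2 difference of 5.94 ± 0.95 from d6_Ineff (adjusted p = 0.00271). Lypd6b was admitted through d6_Eff alone, so this test carries the choice. Cdh26, a cadherin, ran the other way, with 12.1 and 10.8 CPM in d3_Ineff, 8.79 and 9.75 in d3_Eff, 6.28 and 7.64 in d6_Ineff and 0.772 and 0 in d6_Eff (-4.58 ± 0.88 in the Eff gate, adjusted p = 0.00908).

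Channels and transporters of the set were split between the gates. Slc35d3 (ENSMUSG00000050473), a nucleotide sugar transporter family gene, read 0.178 and 0 CPM in d3_Ineff, 1.51 and 1.01 in d3_Eff, 4.60 and 4.92 in d6_Ineff and 30.0 and 28.3 in d6_Eff. The groups did not overlap. Slc35d3 was admitted through d6_Eff alone, so its tests against that group carry the choice. It rose by 5.53 ± 0.95 in the Ineff gate (adjusted p = 0.00924, and 0.10 without d3_Ineff replicate 2) and by 4.43 ± 0.74 in the Eff gate (adjusted p = 0.00346, and 0.052 without d3_Eff replicate 2). Its difference between the day 6 gates was 2.64 ± 0.67 (adjusted p = 0.0236), lost without any of the 4 day 6 libraries (adjusted p from 0.123 to 0.157). Aqp4 (ENSMUSG00000024411), the water channel of astrocytes, read 14.2 and 17.2 CPM in d6_Ineff and 0.0888 to 1.16 in the 6 other sorted libraries. It was lower in d6_Eff by -4.70 ± 0.67 on the log2 scale (adjusted p = 0.00211). Aqp4 was admitted through d6_Ineff alone, so this test carries the choice. The astrocyte marker Gfap averaged 1.02 CPM in d6_Ineff and 0.33 or less in the other sorted groups. Of 24 neural and glial markers 11 stayed below 1 CPM in all 4 sorted groups, while 7 had a highest sorted mean of at least 10 CPM. Over the sorted groups Stmn2 averaged 141 to 269 CPM and Nes 49.3 to 140, and their part in the Aqp4 result was not tested.

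Atp12a, a proton and potassium pump, read 22.8 and 17.9 CPM in d3_Ineff, 31.6 and 20.7 in d3_Eff, 58.5 and 76.7 in d6_Ineff and 54.9 and 41.0 in d6_Eff. It rose in the Ineff gate (1.61 ± 0.28, adjusted p = 0.0122), a call lost without either d3_Ineff library or d6_Ineff replicate 2 (adjusted p from 0.0895 to 0.186). Slc35f1 was lower in d6_Eff, at 1.01 and 0.984 CPM, than in d6_Ineff, at 8.83 and 12.0 CPM (-3.35 ± 0.50, adjusted p = 0.00149). Among the ion channels Kcnk13, a potassium channel, read 16.6 and 11.6 CPM in d3_Eff, and Trpm3, a cation channel, read 16.7 and 11.6 in d6_Ineff and 0.820 and 0.984 in d6_Eff. The set held 3 of 30 ion channel genes and 4 of 211 solute carrier and pump genes with a sorted mean of at least 10 CPM. It held 81 of all 9943 genes at that level, and these counts were not tested.

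Genes of synapses and of the actin cytoskeleton were fewer. Sv2b, a synaptic vesicle protein, read 4.32 and 3.51 CPM in d3_Ineff, 14.4 and 9.85 in d3_Eff, 9.02 and 14.8 in d6_Ineff and 34.9 and 30.9 in d6_Eff (1.5 ± 0.34 between the day 6 gates, adjusted p = 0.0156, lost without d6_Ineff replicate 1 or either d6_Eff library with adjusted p from 0.0919 to 0.183). Sybu, a kinesin linker, read 25.2 to 72.2 CPM over the sorted libraries. Synpo2l (ENSMUSG00000039376) read 22.6 and 21.7 CPM in d3_Ineff, 23.5 and 20.6 in d3_Eff, 5.78 and 6.77 in d6_Ineff and 1.59 and 1.11 in d6_Eff. The day 3 groups overlapped, and all day 6 libraries lay below them, d6_Eff lowest. It fell by 4.11 ± 0.33 in the Eff gate (adjusted p = 4.67e-05) and by 1.94 ± 0.30 in the Ineff gate (adjusted p = 0.00508). The Ineff call was lost without any of the 4 libraries compared (adjusted p from 0.0527 to 0.0755). Frmd3, with a FERM domain that links membrane to actin, read 73.0 and 82.5 CPM in d3_Ineff, 54.6 and 45.7 in d3_Eff, 63.5 and 52.4 in d6_Ineff and 15.4 and 13.2 in d6_Eff. It was lower in d6_Eff than in d6_Ineff (-1.99 ± 0.36, adjusted p = 0.00517, and 0.0543 without d6_Eff replicate 2).

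Among genes of G protein signalling, Rgs8, which speeds GTP hydrolysis by G alpha subunits, read 26.9 and 22.0 CPM in d3_Ineff, 9.63 and 8.08 in d3_Eff, 53.5 and 57.3 in d6_Ineff and 9.36 and 9.17 in d6_Eff. Its Ineff libraries lay above its Eff libraries on both days, and the difference passed on day 6 (-2.55 ± 0.45, adjusted p = 0.00366) and not on day 3 (-1.46 ± 0.44, adjusted p = 0.257). Rgs6, of the same family, averaged 10.5 CPM in d6_Ineff. Nxpe2 (ENSMUSG00000032028), a neurexophilin-like gene, read 82.0 and 121 CPM in d6_Ineff and 15.7 and 4.98 in d6_Eff (-3.27 ± 0.49, adjusted p = 0.00192). Stum, related to a fly gene of mechanosensing, read 22.6 and 27.6 CPM in d6_Ineff and 4.05 and 5.48 in d6_Eff (-2.37 ± 0.36, adjusted p = 0.00195), against 8.62 to 9.54 on day 3. Stum was admitted through d6_Ineff alone, so its tests that use that group carry the choice. Its shift between days was -2.41 ± 0.49 (adjusted p = 0.0455), and that of Synpo2l was -2.17 ± 0.42 (adjusted p = 0.0355). Each of these shifts was lost in 10 of the 12 refits, those without any sorted library or either iPSC library.

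Further genes of the set are given here by role. Of the secreted proteins, Clec3b, the plasminogen-binding tetranectin, read 11.8 and 14.2 CPM in d6_Ineff and 0.861 to 2.47 in the other sorted libraries. Hc, complement component C5, read 11.8 and 10.2 CPM in d6_Ineff and 1.16 to 5.89 elsewhere, and R3hdml read 26.9 and 21.8 in d6_Ineff and 12.8 and 12.2 in d6_Eff against 2.93 to 4.27 on day 3. Vit, the matrix protein vitrin, was broad, at 22.0 to 63.6 CPM over the sorted libraries. The Ineff rises of Clec3b and Hc were each lost in 8 of the 12 refits. Prima1, which anchors acetylcholinesterase in membranes, and Camk1g, a calmodulin-dependent kinase, read higher on day 6. Prima1 read 13.3 to 20.9 CPM on day 6 and 2.58 to 6.41 on day 3, and Camk1g 12.2 to 23.0 on day 6 and 1.42 to 2.40 on day 3. The Camk1g rise was called in both gates. That of Prima1 was called in the Ineff gate alone, and was lost without any of the 4 libraries compared. Slc25a48, a mitochondrial carrier family gene, read 13.2 and 15.7 CPM in d6_Eff and 0.934 to 4.66 in the other sorted libraries. Usp50, of the ubiquitin protease family, was highest on day 3, at 12.4 and 12.3 CPM in d3_Eff against 4.24 and 2.77 in d6_Eff.

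Of the 26 genes with no call between sorted groups, Ly6g6f, a surface protein, read 4.72 and 9.06 CPM in d3_Ineff, 22.3 and 32.0 in d3_Eff, 14.1 and 11.6 in d6_Ineff and 23.9 and 30.1 in d6_Eff. Its Eff libraries lay above its Ineff libraries on both days. Aox1, an aldehyde oxidase, and Fras1, a basement membrane protein, were highest in d6_Ineff, at 10.5 and 17.9 CPM and at 14.5 and 23.7 CPM. Fras1 read 1.62 CPM in MEF replicate 1 and none in replicate 2. Tmem130 read 9.70 and 12.5 CPM in d6_Ineff, and Necab1, a calcium-binding protein of neurons, 13.9 and 8.69 in d3_Eff. Drp2, of the dystrophin family, read 3.11 to 12.2 CPM over the sorted libraries, Fam84a 6.27 to 17.2, Pdzph1 3.32 to 12.8 and Prob1 3.87 to 21.2. Rapgef4, a cyclic AMP-activated exchange factor, read 2.93 to 12.1 CPM, and Sh3rf2, a ring finger protein, 7.22 to 17.5. Of the 3 genes with no symbol, ENSMUSG00000090828 and ENSMUSG00000085935 fell in the Eff gate, to 0.627 and 0 CPM and to 1.01 and 0 CPM in d6_Eff. ENSMUSG00000085698 read 6.75 and 14.4 CPM in d3_Eff.

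The set held 76 protein-coding genes and 2 antisense RNAs among the 78 with a symbol. Igf2os, antisense to Igf2 with 98 shared exon bases, read 18.9 and 19.5 CPM in d3_Eff. Igf2 itself averaged 3645 CPM there and 262 and 7.46 CPM in MEF and iPSC, and without strand, reads over the shared bases cannot be assigned to either gene. Exons of 14 genes overlapped a gene on the other strand. Among them Tm6sf1 shares 1220 bases with Hdgfl3 (78.7 CPM in d6_Ineff), 1700020L24Rik 466 bases with Mmp28 (56.4 CPM) and Kpna7 50 bases with Arpc1a (109.5 CPM), so their counts are uncertain. Exon length had a median of 4.37 kilobases against 4.69 for all genes with a sorted mean of at least 10 CPM. The genes were scattered: chromosome 2 held the most, 10, and 4 pairs lay within 1000 kilobases of each other on GRCm38 (Ager and Ly6g6f, Tmem130 and Kpna7, Tox2 and R3hdml, Pax2 and Tlx1).

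Promoters of the set held fewer CG dinucleotides than those of all genes with a sorted mean of at least 10 CPM. RefSeq windows were found for 50 of the 78 genes with a symbol. An observed to expected ratio of at least 0.6, as in the Shisa3 and Cldn11 windows printed above, was reached by 14 of the 50 (28.0%). It was reached by 79.9% of 7814 genes with a sorted mean of at least 10 CPM and by 36.5% of all 27025 windows. The median ratio was 0.439, against 0.80 and 0.389. By group of highest level the count was 0 of 5 genes for d3_Ineff, 2 of 11 for d3_Eff, 7 of 23 for d6_Ineff and 5 of 11 for d6_Eff. These are descriptions of the sequence, with no test.

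**Figure D5:**
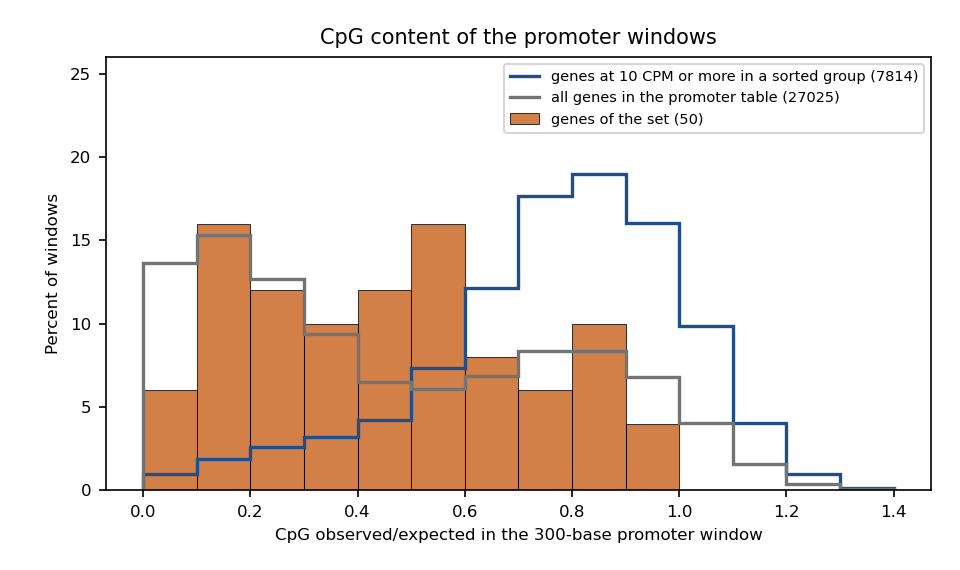
Distribution of the observed to expected CG ratio (x axis) in 300-base promoter windows, as a percent of windows (y axis), for 50 genes of the set (bars), 7814 genes at 10 CPM or more in a sorted group (blue line) and all 27025 windows (grey line). The bars lie mostly below 0.6, and the blue line peaks between 0.8 and 0.9.

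Short motifs were searched on both strands of the windows, and a match is a description and not a bound site. The octamer ATGCAAAT, read by POU factors, occurred in 2 of the 50 windows (4.00%) and in 1.75% of all 27025, with 1.36% among the 7814 genes above. One of the matches is the Acsbg1 window printed above, 50 bases before the start. GGGNGTGG, a KLF-type box, occurred in 12 (24%) in 17.6% of all and in 23.6% of the 7814, and in the Avil window it stands 174 bases before the start. CATTGTN, a SOX-type motif, occurred in 2 (4.00%) against 12.8% of all and 6.35% of the 7814. The E-box CACGTG occurred in 1 (2.00%) against 7.24% and 10.8%, and TATAAA in 5 (10.0%) against 14.2% and 6.21%.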

How the data were processed

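Per the labels, poly-A RNA was made into libraries with a directional kit. The authors deposited 1 table of whole-number counts of reads per Ensembl gene for each sample. The submitters' processing notes name STAR 2.3.0, Picard 1.100, HTSeq 0.6.0 and genome build mm9, and no source used here names the annotation. Per the names of the deposited tables the counting ignored strand. The 5 summary lines of each table were left out of all totals.

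CPM is a count per 1000000 gene counts, unscaled, and was used to choose and describe genes. Symbols and exon lengths came from GENCODE M21 (32860 of 37583 identifiers, 87.4%), and promoters from RefSeq. Genes were kept by filterByExpr (16240 genes), scaled by TMM and fitted with edgeR 4.0.16 in R 4.3.3 over all 12 libraries, 1 mean per group, by quasi-likelihood with robust dispersions (6 residual degrees of freedom, biological coefficient of variation 28.0%). SE was taken as the size of the log2 difference over the root of its F statistic. Floors are 3 counts over a group. The fit was tested on simulated data. DESeq2 1.42.0, other scalings, no filter, fewer libraries and other limits were alternatives.

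The genes, gene lists and tests were chosen with earlier results of these data known. Named by rule were, for each comparison, up to 4 called genes per direction with the largest change and no overlap between groups (for the difference between days without that condition), the 8 with the highest CPM per kilobase, those beside each limit, up to 3 per gene list and the sort markers. Other genes are named to account for the set by role, a grouping made by hand after values were seen. Gene lists were 12 families and 16 marker lists.
 Some genes of the set count in its totals but are not reported here by name.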

Additional observations from a re-analysis of the deposited data

Results flagged for a closer look

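For 6 genes the gap between the Eff and the Ineff gate differed between day 3 and day 6, by a test of that difference itself in the edgeR fit. The gates were sorted by partly different markers on the 2 days, so day and sort marker cannot be told apart. On the log2 scale the change of the gap was -4.26 for Sptssb, -3.59 for Acsbg1, -2.88 for Aspa, -2.41 for Stum and -2.17 for Synpo2l, which moved towards the Ineff gate, and 3.85 for S100a14, which moved towards the Eff gate. Each rests on 2 libraries per group, and the calls other than that of Acsbg1 were lost when single libraries were left out.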

How the results depend on the processing

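Limits. The spread was shared over all groups, with 2 libraries each, and leaving out a library of a compared group leaves a lone one, assumed to vary like the other groups. Most counts rose without a MEF library and fell without a compared one. The cause was not tested. The 30 called differences named for their size, not those of other named genes, were refitted singly. None changed sign; calls were kept in 279 and lost in 81 of the leave-one-out results, and kept in 234 and lost in 6 of the others.

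Genes of the set called numbered, for the gates on day 3, 1 without TMM, 15 with no filter, 16 with DESeq2's Wald test and 22 with the 8 sorted libraries alone (leaving out 1 library, 0 to 19). For the gates on day 6 there were 60 with the 8 sorted libraries (18 to 52). For the Ineff gate between days there were 41 with no filter, 42 with DESeq2 and 57 with the 8 libraries (4 to 50), and for the Eff gate 50 with the 8 libraries (17 to 46). For the difference between days there were 3 without TMM, 29 with no filter, 25 with DESeq2 and 37 with the 8 libraries (1 to 29). Without MEF replicate 2 and d6_Eff replicate 2 together, an alternative chosen after seeing the data, 20, 44, 53, 39 and 21 were called in these 5 comparisons.

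All genes called numbered 65 for the gates on day 3, and 30 without TMM, 459 with no filter, 431 with DESeq2, 562 with the 8 libraries and 706 without both libraries (4 to 644). For the gates on day 6 the 8 libraries gave 4478 (930 to 4715). For the Ineff gate there were 1362 with no filter, 1634 with DESeq2, 2391 with the 8 libraries and 2693 without both (103 to 2607), and for the Eff gate 2291 with DESeq2 and 2824 with the 8 libraries (657 to 2958). The difference between days gave 134 without TMM, 832 with no filter, 833 with DESeq2, 1237 with the 8 libraries and 949 without both (20 to 1349).

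Other limits for the choice gave 128 genes with MEF and iPSC at most 2 CPM, 133 with a sorted mean of at least 5 CPM and 33 with at least 20 CPM (74 to 96 leaving out 1 library), and 61 and 18 of the latter choices were highest in d6_Ineff (36 to 49). TMM-scaled CPM gave 73, ends of at most 0.5 CPM 54, and limits on every library 55.

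With the replicate number as a block, 2, 36, 23, 32 and 6 genes of the set were called in the 5 comparisons. Whether replicate numbers pair samples was not settled. The deviations of same-numbered libraries correlated from -0.320 to 0.565 over 10324 genes. The highest value was between MEF and d3_Ineff, and d6_Ineff correlated negatively with every other group (-0.101 to -0.320). With the d6_Ineff numbers crossed, chosen after seeing the data, the block called 2, 39, 28, 32 and 12.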

Other observations

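Of the marker lists examined for cell types that belong to neither end point, 16 of 23 leukocyte, 22 of 25 endoderm, liver and gut, 25 of 29 germ cell and 16 of 17 erythroid and megakaryocyte genes stayed below 1 CPM in all 4 sorted groups. Single genes of these and other lists were nevertheless high. Laptm5, a lysosomal membrane protein of blood cells, averaged 337 CPM in d3_Ineff, 259 in d3_Eff, 521 in d6_Ineff and 212 in d6_Eff, against 0.568 in MEF and 34.0 in iPSC, while Ptprc, the pan-leukocyte surface phosphatase, averaged at most 0.0667 CPM in the sorted groups. Tek, an angiopoietin receptor of endothelium, averaged 75.8 to 151 CPM there against 1.63 in MEF and 4.72 in iPSC, and Mbp, the myelin basic protein, 54.2 to 109 CPM against 3.26 and 6.51. These 3 genes were picked after their values were seen and exceeded the limits on MEF or iPSC, so they are not among the 81.

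Of the other marker lists, 13 of 19 trophoblast, 11 of 12 two-cell-like and 6 of 29 pluripotency genes stayed below 1 CPM in all 4 sorted groups, and 15 of the 29 pluripotency genes rose from d3_Eff to d6_Eff and 1 fell. None of the 4 reprogramming factor genes was called in a comparison of sorted groups. Over all 16240 genes tested, 9.25% were lower and 5.38% higher in d6_Eff than in d6_Ineff, so more lower than higher calls is the general pattern of that comparison, and nothing particular to a family is read from its counts. The 12 families included cytokines, growth factors and their receptors (77 lower, 11 higher, 316 tested), small GTPase regulators (49, 13, 311), solute carriers and pumps (43, 18, 346), proteases and their inhibitors (35, 7, 142), leukocyte surface and immune signalling genes (31, 6, 164) and neurotransmitter and G protein-coupled receptors (28, 6, 140). Synapse and vesicle proteins had 21 lower and 9 higher of 173, lipid and steroid enzymes 21 and 10 of 164, ion channels 14 and 2 of 113, cadherins 12 and 2 of 44, and claudins, keratins and cornified envelope genes 5 and 14 of 52.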
